A study of Homo sapiens with 16 samples.

Results

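The genes described here are 10 genes of the NF-kB pathway, taken by name from a table of 60448 gene identifiers: 4 subunits of the transcription factor (NFKB1, NFKB2, RELA and RELB) and 6 inhibitors or feedback regulators (NFKBIA, NFKBIE, NFKBIZ, TNFAIP3, TNIP1 and BIRC3). All 10 were found and all 10 had a mean of at least 0.5 FPKM (fragments scaled by exon length and by library total), the minimum for a test. They were measured by mRNA sequencing in 16 libraries, 8 groups of 2, of 2 human lung adenocarcinoma lines, A549 and the cisplatin-resistant A549/cDDP that derives from it. A549 without transfection received cisplatin solvent or cisplatin for 24 h, and so did A549/cDDP without transfection, A549/cDDP transfected with a control gapmer and A549/cDDP in which a gapmer targeted SCAT7, a long noncoding RNA. Cisplatin is a platinum drug that crosslinks DNA, and a gapmer is an antisense oligonucleotide through which RNase H cuts the matching RNA. The labelled cisplatin concentration was 15 mM, printed here as the labels give it, and A549/cDDP was also maintained in medium with that labelled concentration, so its solvent libraries come from cells with earlier exposure. Transfected cells received 12 pmol of gapmer and were collected 48 h later. A549/cDDP is a single resistant line, every gapmer library comes from it, and SCAT7 was targeted under 1 gapmer label. That label, L2 in the sample titles, was read as the SCAT7 gapmer because the design text names only SCAT7 as a knockdown target.

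NF-kB factors are dimers of Rel-family proteins. In resting cells inhibitor proteins of the IkB family hold them in the cytoplasm, and signals from cytokine receptors, pathogen sensors or DNA damage activate IkB kinase, which marks the inhibitors for degradation. The freed dimers bind kappaB sites and switch on genes of inflammation and survival, among them the genes of their own inhibitors and of enzymes that shut the upstream signal down, which is why the pathway is a textbook case of negative feedback. RELA carries a transactivation domain and pairs most often with the product of NFKB1, whereas RELB pairs with the product of NFKB2 in the slower, non-canonical branch.

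The sequence at the start sites of the 10 genes is shown first, as a description apart from the measured levels. The RefSeq promoter table (GRCh38.p14; 250 bases before each annotated start were searched) held 14 windows for 8 of the 10 genes; RELB and NFKBIE were not matched. The standard 10-base kappaB consensus was searched by name on both strands, and neighbouring matches can overlap. It was present in 9 of the 14 windows, from 7 genes, which is 64.3%, against 9.96% (3498) of all 35116 windows of the same length. The genes were chosen by name as members of the pathway, and 1 gene can have several windows, so these shares are not a test. A match is a description of the letters and not a measured binding site. The window of NFKBIA (chr14:35404750-35404999, minus strand), the gene of the best-known inhibitor, is given whole, with the match in capitals:
NFKBIA: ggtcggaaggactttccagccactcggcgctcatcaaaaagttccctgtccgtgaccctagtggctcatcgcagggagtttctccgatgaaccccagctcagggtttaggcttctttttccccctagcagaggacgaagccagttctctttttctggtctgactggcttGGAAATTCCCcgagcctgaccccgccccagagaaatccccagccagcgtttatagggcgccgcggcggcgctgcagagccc
For the other genes with a match, 30 bases around each site are shown, again with the match in capitals, so that the feedback genes and the subunits can be compared:
TNFAIP3 (chr6:137867188-137867217, plus strand): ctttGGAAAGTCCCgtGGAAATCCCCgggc
BIRC3 (chr11:102317275-102317304, plus strand): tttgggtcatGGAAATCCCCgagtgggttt
BIRC3 (chr11:102317339-102317368, plus strand): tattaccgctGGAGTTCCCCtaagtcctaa
NFKBIZ (chr3:101827757-101827786, plus strand): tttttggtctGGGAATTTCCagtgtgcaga
NFKBIZ (chr3:101849265-101849294, plus strand): gcgcgctgtcGGGGTTTCCCggtgaagggc
TNIP1 (chr5:151081057-151081086, minus strand): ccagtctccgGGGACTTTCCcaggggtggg
NFKB1 (chr4:102501300-102501329, plus strand): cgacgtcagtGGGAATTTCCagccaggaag
NFKB2 (chr10:102394462-102394491, plus strand): aaacgtcatGGGAATTCCCCcctccggggg
NFKB2 (chr10:102394490-102394519, plus strand): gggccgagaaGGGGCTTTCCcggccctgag
NFKB2 (chr10:102395519-102395548, plus strand): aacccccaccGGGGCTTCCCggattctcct
NFKB2 (chr10:102395674-102395703, plus strand): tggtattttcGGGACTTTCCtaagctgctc
The subunit gene NFKB2 held the most matches, 3 in 1 window (2 of them overlapping) and 2 in another. TNFAIP3 and BIRC3 each held 2 in 1 window. All 250 bases of the NFKB2 window with 3 matches lay in GENCODE exons of the gene, as did those of the second NFKBIZ window. For that NFKB2 window and the first NFKBIZ window, the bases after the RefSeq start were not found whole in a GENCODE transcript of the gene. Distances are from RefSeq starts, which need not be the GENCODE gene start given further on: the TNFAIP3 matches begin 67 bases before the RefSeq start and lie inside the GENCODE gene, as do those of NFKB2 and TNIP1 and the second of NFKBIZ. The last NFKB2 site and the TNIP1 site have the same capitals, and so do NFKB1 and the first NFKBIZ site.

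The libraries held between 31350000 and 43140000 fragments by the steps between low FPKM values, and replicates correlated at 0.991 to 0.996 across genes. The labels do not say whether replicates were separate cultures, and the spread behind each p-value may therefore be technical. The SCAT7 gapmer libraries were the shallowest of the gapmer groups, at 31350000 to 33400000 fragments against 42300000 to 43140000 with the control gapmer. ELF3-AS1, which RefSeq also names SCAT7, read 2.56 and 3.57 FPKM with the control gapmer in solvent. With the SCAT7 gapmer in solvent it read 0.594 and 0.837 (log2 change -1.54, limma adjusted p = 7.5e-06). In cisplatin the values were 3.73 and 3.23 against 1.69 and 2.18 (-0.71, adjusted p = 0.00355). Without transfection it read 2.97 and 3.27 in A549 with solvent and 15.2 and 13.3 with cisplatin (2.02, adjusted p = 3.78e-07). In A549/cDDP it read 2.89 and 3.79, then 2.41 and 2.41 (-0.39, adjusted p = 0.192). The 6 epithelial markers summed to 2300 to 4330 FPKM, and 12 markers of other cell types summed to 0.491 to 2.41 FPKM, with 10 of the 12 never above 0.5 (CD14 and CD68 were the exceptions). The leukocyte genes PTPRC and CD3E were listed at 0 in 11 and 15 of the 16 libraries. Among the epithelial markers EPCAM was low, at 0.584 to 3.81 FPKM, and CDH1 read 2.02 to 14.5. In bulk RNA a change in the number of cells of a type and a change in RNA per cell cannot be told apart.

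All 10 genes had their lowest group mean in A549 with solvent and their highest in A549/cDDP with the SCAT7 gapmer and solvent. Between the lowest and the highest single library, the ranges differed widely among the 10: TNFAIP3 spanned 45.6-fold, BIRC3 11.6-fold and NFKBIZ 7.84-fold, whereas NFKB1 spanned 2.24-fold and RELA 1.87-fold. The other 5 genes lay between these, from 2.67-fold for NFKB2 to 5.54-fold for NFKBIE. Since the 10 genes share libraries, their common lowest and highest groups are a description of these libraries. The order of the groups between these differed among the genes.

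**Figure D1:**
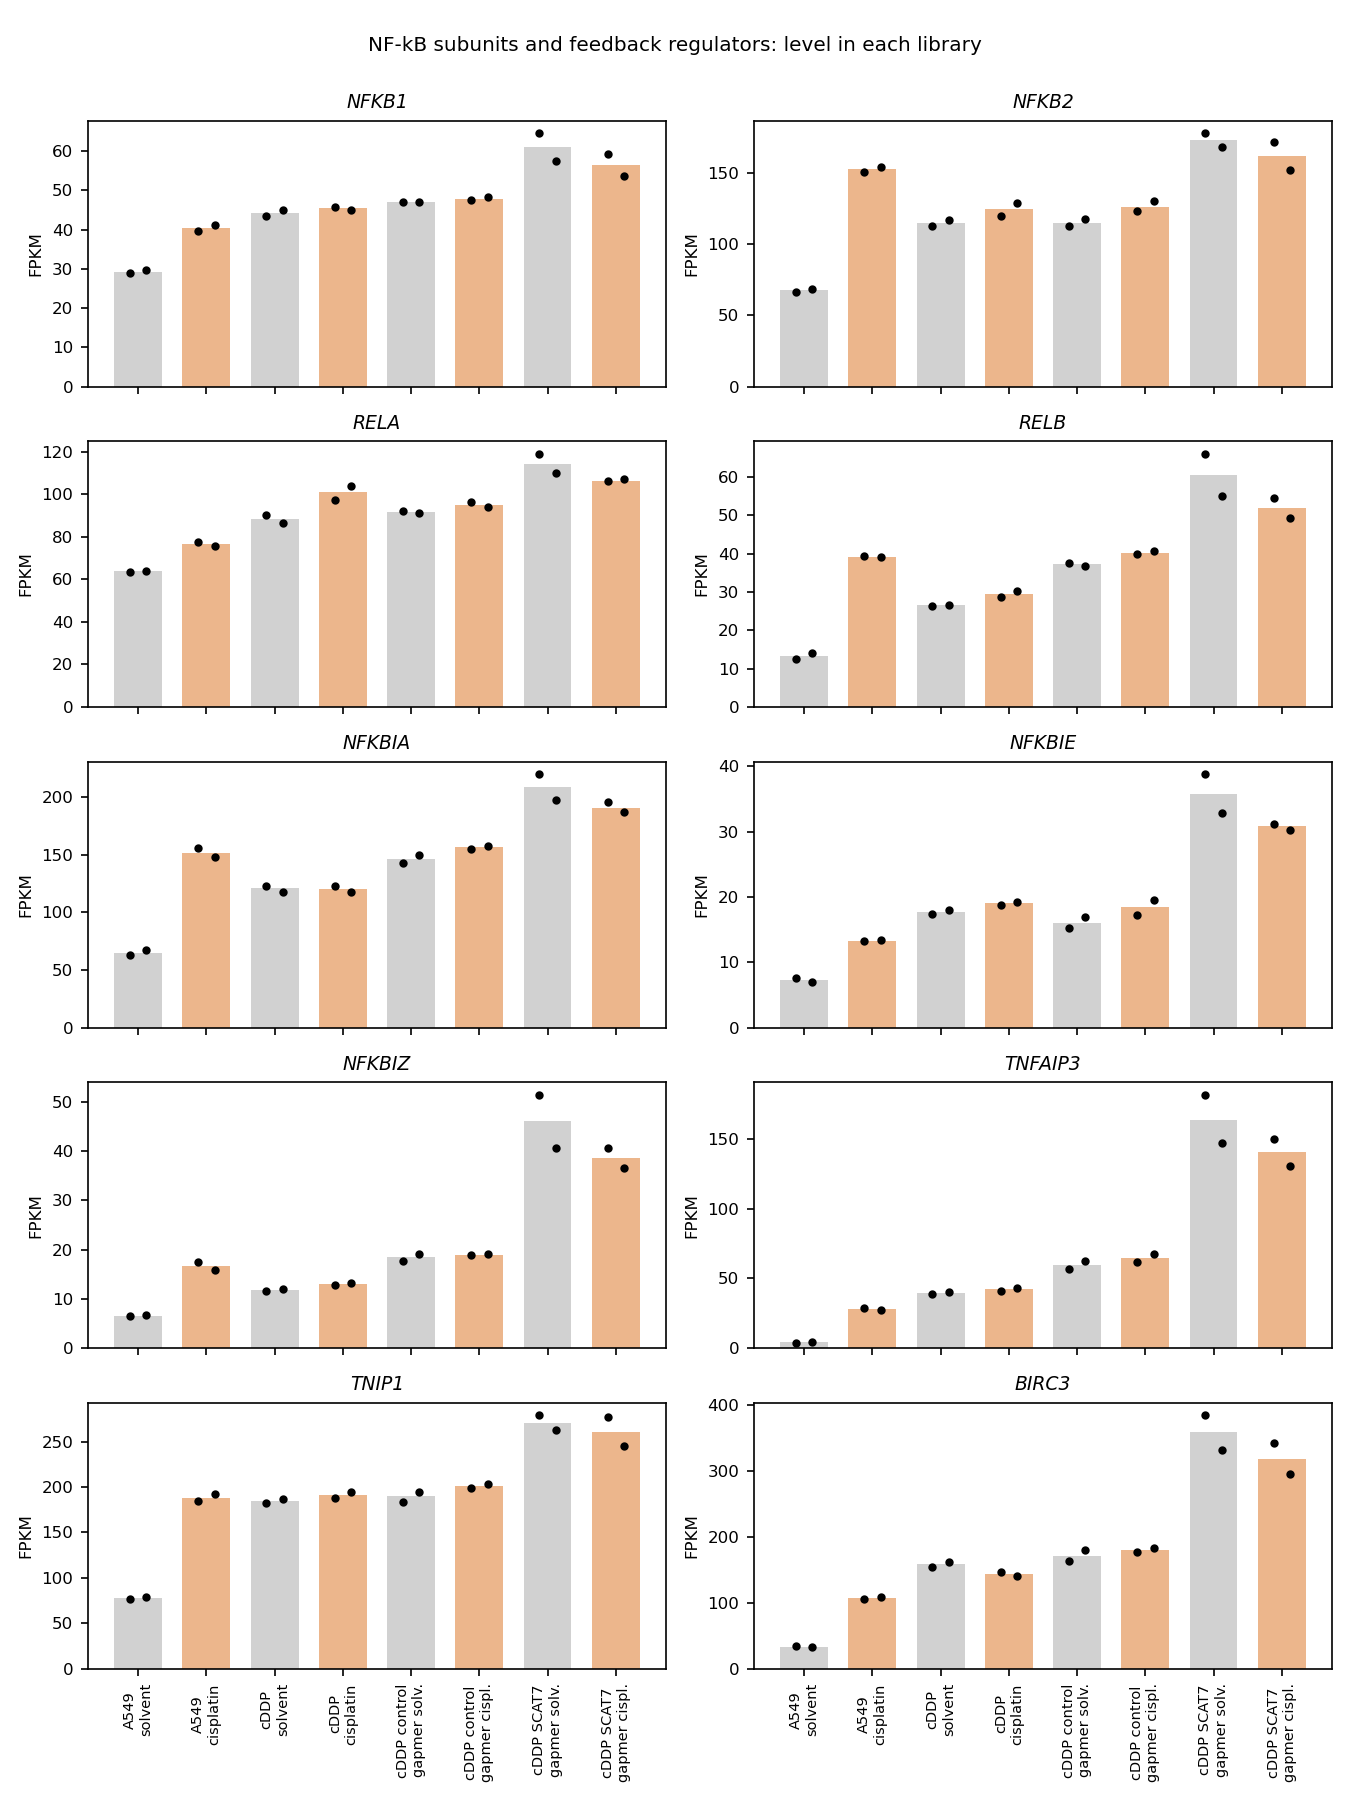
FPKM of each of the 10 genes (linear axes from 0, 1 panel per gene) in the 8 groups of 2 libraries; bars are group means (grey solvent, orange cisplatin) and points are single libraries. For every gene the lowest group is A549 with solvent and the highest is the SCAT7 gapmer with solvent; TNFAIP3 goes from 3.98 and 4.3 FPKM to 182 and 147.

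Of the subunits, RELA (ENSG00000173039, chromosome 11, 65653596 to 65663094, hg38), which encodes the main activating subunit, moved least. It read 63.2 and 64.1 FPKM in A549 with solvent and 77.4 and 75.5 with cisplatin, and 90 and 86.6 against 97.4 and 104 in A549/cDDP. Control gapmer libraries read 92 and 91.1 in solvent and 96.3 and 94 in cisplatin, and with the SCAT7 gapmer 119 and 110 in solvent and 106 and 107 in cisplatin. The 2 A549 groups were the lowest, the SCAT7 gapmer groups the highest, and no neighbouring groups in the order of means overlapped. Its 9 bases of exon shared with the opposite-strand gene AP001362.2 cannot be assigned, because no source says whether counting used strand.

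NFKB1 (ENSG00000109320, chromosome 4, 102501329 to 102617302), whose precursor is processed to the usual partner of RELA, read 28.9 and 29.7 FPKM in A549 with solvent and 39.7 and 41.1 with cisplatin. In A549/cDDP it read 43.5 and 45.1 in solvent and 45.9 and 45.1 in cisplatin, and with the control gapmer 47 and 47.1, then 47.5 and 48.3. With the SCAT7 gapmer it reached 64.6 and 57.6 in solvent and 59.3 and 53.7 in cisplatin. Every A549/cDDP library was above every A549 library, and the 2 SCAT7 gapmer groups overlapped each other but no other group.

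NFKB2 (ENSG00000077150, chromosome 10, 102394110 to 102402529), the precursor subunit of the non-canonical branch, read 66.6 and 68.5 FPKM in A549 with solvent and 151 and 154 with cisplatin. In A549/cDDP without transfection it read 113 and 117 in solvent and 120 and 129 in cisplatin, close to the 113 and 118 and the 123 and 130 of the control gapmer. With the SCAT7 gapmer it read 178 and 168 in solvent and 172 and 152 in cisplatin. Treated A549 therefore lay above every untransfected A549/cDDP library and overlapped the SCAT7 gapmer group in cisplatin.

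RELB (ENSG00000104856, chromosome 19, 45001430 to 45038198), the partner of NFKB2 and itself a known target of RELA, was the least abundant subunit. It read 12.5 and 14 FPKM in A549 with solvent and 39.4 and 39.1 with cisplatin, and 26.3 and 26.7 against 28.7 and 30.2 in A549/cDDP. In the control gapmer groups it read 37.7 and 36.8 in solvent and 39.8 and 40.6 in cisplatin, and with the SCAT7 gapmer 66.1 and 55 in solvent and 54.6 and 49.4 in cisplatin. No neighbouring groups in its order overlapped, and treated A549 lay between the 2 control gapmer groups.

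The make-up of the subunit pool differed between groups, also between groups with pools of about the same size. The 4 subunits summed to 174 FPKM in A549 with solvent (SD 3.62, n = 2) and 309 with cisplatin (SD 1.15, n = 2). Over the same comparison the share of RELA in the sum went from 36.7% to 24.8%, that of NFKB2 from 38.9% to 49.5%, that of RELB from 7.62% to 12.7% and that of NFKB1 from 16.9% to 13.1%. In A549/cDDP without transfection the sum was 274 in solvent and 300 in cisplatin, and RELA held 32.2% and 33.5% of it, so treated A549 and treated A549/cDDP had sums of 309 and 300 with RELA shares of 24.8% and 33.5%. The largest sum, 409 FPKM (SD 25.8, n = 2), was that of the SCAT7 gapmer in solvent, where RELB had its largest share, 14.8%. With 2 libraries a group these shares were not tested.

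**Figure D2:**
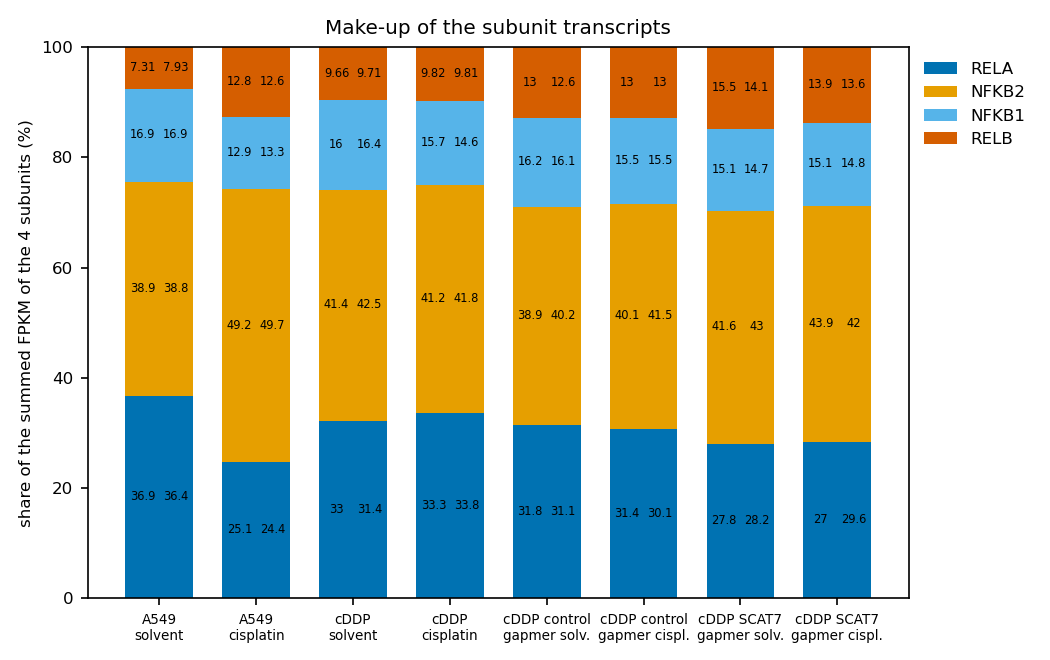
Share of each of the 4 NF-kB subunits in their summed FPKM (percent, stacked to the full sum) in the 8 groups; bars are group means and the printed figures are the shares in library 1 and library 2. In A549 the RELA share is 36.7% on average in solvent and 24.8% in cisplatin, while the NFKB2 share is 38.9% and 49.5%.

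Among the inhibitors, NFKBIA (ENSG00000100906, chromosome 14, 35401511 to 35404749), which encodes IkB alpha, read 62.9 and 67.3 FPKM in A549 with solvent and 156 and 148 with cisplatin. In A549/cDDP it read 123 and 118 in solvent and, at this rounding, 123 and 118 in cisplatin. Under the control gapmer it read 143 and 150, then 155 and 158, and with the SCAT7 gapmer 220 and 198, then 196 and 187. Treated A549 overlapped both control gapmer groups and lay above the untransfected A549/cDDP libraries. Set against RELA in the same library, NFKBIA was 1.02 times RELA in untreated A549 (SD 0.0386, n = 2) and 1.98 times in treated A549 (SD 0.0392, n = 2), and 1.37 and 1.2 times in A549/cDDP in solvent and cisplatin.

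NFKBIE (ENSG00000146232, chromosome 6, 44258166 to 44265788), which encodes IkB epsilon, had the fewest reads of the 10, about 636 fragments in its lowest library. It read 7.59 and 7 FPKM in A549 with solvent and 13.2 and 13.4 with cisplatin, and 17.4 and 18 against 18.8 and 19.2 in A549/cDDP. Its control gapmer libraries read 15.2 and 16.9 in solvent and 17.3 and 19.5 in cisplatin, and with the SCAT7 gapmer 38.8 and 32.8 in solvent and 31.2 and 30.3 in cisplatin. The SCAT7 gapmer libraries stood clear of the others, and the untransfected and control gapmer groups of A549/cDDP overlapped in cisplatin.

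NFKBIZ (ENSG00000144802, chromosome 3, 101827991 to 101861022) encodes a nuclear IkB protein that works as a cofactor at a subset of target genes. It read 6.55 and 6.62 FPKM in A549 with solvent and 17.5 and 15.9 with cisplatin, and 11.6 and 11.9 against 12.8 and 13.3 in A549/cDDP. With the control gapmer it read 17.6 and 19.1 in solvent and 18.8 and 19 in cisplatin, and with the SCAT7 gapmer 51.4 and 40.5 in solvent and 40.5 and 36.5 in cisplatin. Its lowest SCAT7 gapmer library was thus above its highest library of any other group.

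TNFAIP3 (ENSG00000118503, chromosome 6, 137867188 to 137883312) encodes A20, a ubiquitin-editing enzyme that shuts off signalling to IkB kinase. It read 3.98 and 4.3 FPKM in A549 with solvent and 28.8 and 27.4 with cisplatin, and 39 and 40.6 against 40.9 and 43.2 in A549/cDDP. With the control gapmer it read 56.9 and 62.4 in solvent and 61.5 and 67.3 in cisplatin, and with the SCAT7 gapmer 182 and 147 in solvent and 150 and 131 in cisplatin. Untreated A549 was far below all other groups, and its A549/cDDP levels exceeded treated A549 in every library. TNFAIP3 was 0.065 times RELA in untreated A549 and 1.43 times RELA with the SCAT7 gapmer in solvent (SD 0.141, n = 2). A 95-base exon overlap with the antisense gene AL357060.1 cannot be assigned by strand.

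TNIP1 (ENSG00000145901, chromosome 5, 151029945 to 151093577), whose product binds A20, was among the most abundant of the 10. It read 76.7 and 78.6 FPKM in A549 with solvent and 185 and 192 with cisplatin, and 182 and 187 against 188 and 194 in A549/cDDP. With the control gapmer it read 184 and 195 in solvent and 199 and 203 in cisplatin, and with the SCAT7 gapmer 279 and 263 in solvent and 277 and 245 in cisplatin. Treated A549 and the solvent groups of A549/cDDP, with and without the control gapmer, overlapped one another.

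BIRC3 (ENSG00000023445, chromosome 11, 102317450 to 102339403) encodes cIAP2, a ubiquitin ligase at the receptors that feed NF-kB. It read 33.6 and 33.3 FPKM in A549 with solvent and 105 and 109 with cisplatin, and 154 and 162 against 147 and 140 in A549/cDDP. With the control gapmer it read 163 and 180 in solvent and 177 and 183 in cisplatin, and with the SCAT7 gapmer 384 and 332 in solvent and 342 and 295 in cisplatin. The SCAT7 gapmer libraries did not overlap any other group. For all 10 genes library 1 of the SCAT7 gapmer in solvent was above library 2, and in cisplatin for 9 of 10.

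The first question of the design is how each line responds to cisplatin. In A549 all 10 genes rose, where 60.4% of the 17198 genes tested changed and 33.3% rose. Changes are on the scale log2(FPKM + 0.5), with a standard error (SE) from a limma fit of all 8 groups and Benjamini-Hochberg adjustment over all genes tested. The median change of the 10 was 1.24, against 0.06 for all genes tested. TNFAIP3 rose most (log2 change 2.62, SE 0.09, 6.17-fold, adjusted p = 1.71e-10), and 0.855% of the tested genes rose more. BIRC3 rose by 1.67 (SE 0.08), RELB by 1.53 (SE 0.08), NFKBIZ by 1.28 (SE 0.09), TNIP1 by 1.27 (SE 0.05) and NFKBIA by 1.21 (SE 0.05). NFKB2 rose by 1.17, NFKBIE by 0.83, NFKB1 by 0.46 and RELA by 0.26 (SE 0.04, adjusted p = 0.000135). RELA therefore had the smallest of the 10 changes, and 33.2% of all tested genes rose more than it did.

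In A549/cDDP, kept in cisplatin before the experiment, the same treatment gave 1 call among the 10, where 8.1% of all tested genes were called (3.55% higher, 4.55% lower). RELA rose by 0.19 (SE 0.04, adjusted p = 0.0162). That call is lost when only the 4 libraries compared enter the fit (adjusted p = 0.104), and without library 2 of its solvent group (0.16, adjusted p = 0.138) or of its cisplatin group (0.14, adjusted p = 0.14). The 95% intervals of the others bound what could have been missed: NFKBIA lay between -0.12 and 0.11, TNIP1 between -0.07 and 0.16, TNFAIP3 between -0.13 and 0.28, RELB between -0.02 and 0.32 and BIRC3 between -0.3 and 0.03. Each of these upper bounds is below the same gene's interval in A549, which for TNFAIP3 began at 2.42 and for NFKBIA at 1.09.

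The difference between the lines was tested as such. The change with cisplatin was smaller in A549/cDDP for 9 of the 10 genes, where 25.6% of all tested genes had a difference in that direction (21.5% in the other and 47% in either). The differences ran from -0.42 for NFKB1 to -2.55 for TNFAIP3 (adjusted p = 1.8e-08), with a median over the 10 of -1.18 against -0.06 for all genes. RELA was the exception, at -0.07 (95% interval -0.2 to 0.05, adjusted p = 0.332).

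**Figure D3:**
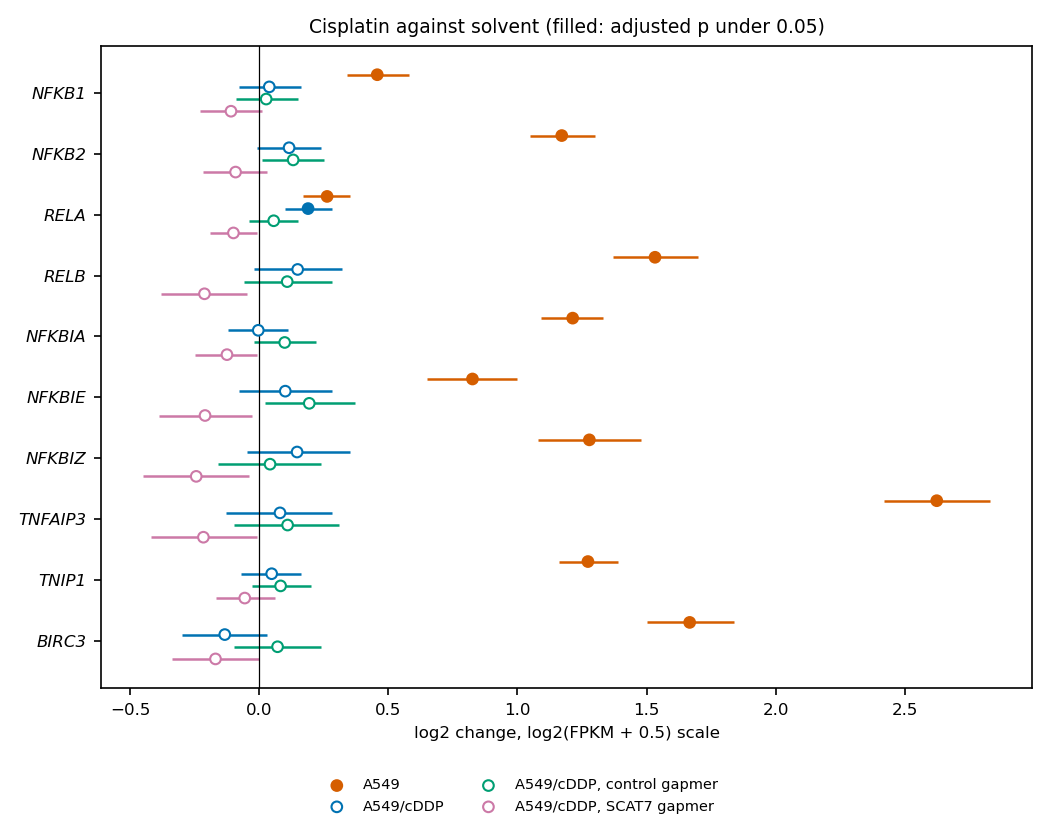
Change with cisplatin (log2(FPKM + 0.5) scale, points) with 95% intervals (lines) for the 10 genes in A549, in A549/cDDP without transfection and in A549/cDDP with the control or the SCAT7 gapmer; filled points passed the adjusted p threshold of 0.05. All 10 A549 points are filled and lie between 0.26 and 2.62, while of the points of the other 3 settings RELA in untransfected A549/cDDP, at 0.19, is the 1 filled.

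The baseline of the lines differed as well. In solvent all 10 genes were higher in A549/cDDP, where 70.2% of all tested genes differed and 42.7% were higher. TNFAIP3 was higher by 3.12 (SE 0.09, 8.69-fold, adjusted p = 3.97e-11), BIRC3 by 2.22 (SE 0.08, 4.66-fold), TNIP1 by 1.25, NFKBIE by 1.23 and RELB by 0.98. NFKBIA, NFKBIZ, NFKB2 and NFKB1 were higher by 0.89, 0.79, 0.76 and 0.59, and RELA by 0.47 (SE 0.04). The median of all genes was 0.15 higher, and 0.02 after median ratio scaling, so differences of this size lie within the shift of the whole table; the median of the 10 was 0.93, and 0.78 after that scaling. Summed markers of other cell types were 1.78 to 2.41 FPKM in the untreated A549 libraries and 0.653 to 0.874 in A549/cDDP, CD14 being the main one in A549; their part in the difference was not tested.

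With cisplatin in both lines the 10 genes split. A549/cDDP was higher for 5 and lower for 4, where 66.5% of all tested genes differed (37% higher, 29.5% lower). TNFAIP3 (0.57), NFKBIE (0.50), BIRC3 (0.42), RELA (0.39) and NFKB1 (0.17) were higher in A549/cDDP. RELB (-0.41), NFKBIZ (-0.34), NFKBIA (-0.33) and NFKB2 (-0.29) were lower, and TNIP1 stood at 0.02 (95% interval -0.1 to 0.14). NFKB1 lost its call under median ratio scaling (0.08, adjusted p = 0.169) and without library 1 of treated A549 (adjusted p = 0.0931) or of treated A549/cDDP (0.072), and NFKBIZ without library 1 of treated A549 (-0.28, adjusted p = 0.0519). These comparisons use the same libraries as those of cisplatin within each line and are not independent of them. Markers of other cell types summed to 2.24 to 2.39 FPKM in treated A549 and 0.491 to 0.528 in treated A549/cDDP, and their part was not tested. The mean of A549/cDDP in solvent was already above that of treated A549 for NFKB1, RELA, NFKBIE, TNFAIP3 and BIRC3.

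The second question is what a gapmer against SCAT7 does in the resistant line, with and without drug. All 10 genes were higher with the SCAT7 gapmer than with the control gapmer in solvent, where 55.8% of all tested genes differed and 33.2% were higher. TNFAIP3 was higher by 1.45 (SE 0.09, 2.72-fold, adjusted p = 9.95e-08), NFKBIZ by 1.29 (SE 0.09, 2.45-fold), NFKBIE by 1.13 (SE 0.08, 2.19-fold) and BIRC3 by 1.06 (SE 0.08, 2.08-fold). RELB, NFKB2, NFKBIA and TNIP1 were higher by 0.69, 0.58, 0.51 and 0.51. NFKB1 and RELA were higher by 0.37 and 0.32 (adjusted p = 0.000113 and 3.72e-05). The median of the 10 was 0.63, against 0.06 for all genes.

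In cisplatin the same comparison was again higher for all 10, where 49.7% of all tested genes differed (28.6% higher, 21.1% lower). The largest were TNFAIP3 at 1.12 (SE 0.09), NFKBIZ at 1 (SE 0.09), BIRC3 at 0.82 (SE 0.08) and NFKBIE at 0.73 (SE 0.08). The smallest was RELA at 0.16 (SE 0.04, adjusted p = 0.00638), and the median of the 10 was 0.37 against 0.04. The SCAT7 gapmer libraries were shallower than the control gapmer libraries, and their summed markers of other cell types were 1.65 to 2.13 FPKM against 0.721 to 1.2, with CD68 up to 0.958; the part of either in the result was not tested.

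Under neither gapmer did cisplatin itself move the 10 genes past the threshold. With the control gapmer none was called by limma, where 2.53% of all tested genes were called, and 2 had an unadjusted p under 0.05. The shares of all genes given here are at the adjusted threshold, so they are no background for counts at an unadjusted p. With the SCAT7 gapmer none was called, where 4.18% of all tested genes were called (2.92% higher, 1.26% lower), and 7 had an unadjusted p under 0.05. The 10 values ran from -0.25 for NFKBIZ to -0.06 for TNIP1. ELF3-AS1 (SCAT7) itself rose with cisplatin under the SCAT7 gapmer (log2 change 1, limma adjusted p = 0.014), and the part of that rise was not tested. Without library 2 of the SCAT7 gapmer in solvent, RELB (-0.34, adjusted p = 0.033) and NFKBIZ (-0.41, adjusted p = 0.0276) passed. The difference between the gapmers in the response to cisplatin gave no call by limma, where 0.93% of all tested genes were called (0.488% with a higher difference, 0.442% lower). Of the 10 genes 8 had an unadjusted p under 0.05 in that test, with NFKBIE at -0.40 (95% interval -0.65 to -0.15, adjusted p = 0.14). Without that same library RELB (-0.45) and NFKBIE (-0.52) passed.

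Transfection with the control gapmer was set against no transfection to give the background of the gapmer comparisons. It raised 4 of the 10 genes in solvent, where 39.7% of all tested genes changed and 20.7% rose: NFKBIZ by 0.62, TNFAIP3 by 0.58, RELB by 0.48 and NFKBIA by 0.28. In cisplatin, where 42.4% changed and 23% rose, the same 4 rose by 0.52, 0.61, 0.44 and 0.38, and BIRC3 rose by 0.32 (SE 0.08, adjusted p = 0.00488). NFKBIE stood at -0.14 and -0.05, with 95% intervals of -0.32 to 0.03 and -0.22 to 0.13. RELA in cisplatin stood at -0.08, and at -0.11 under median ratio scaling and -0.13 under quantile normalization it was called lower (adjusted p = 0.0331 and 0.0284). The control gapmer groups are shared with the SCAT7 comparisons, which are therefore not independent of these.

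**Figure D4:**
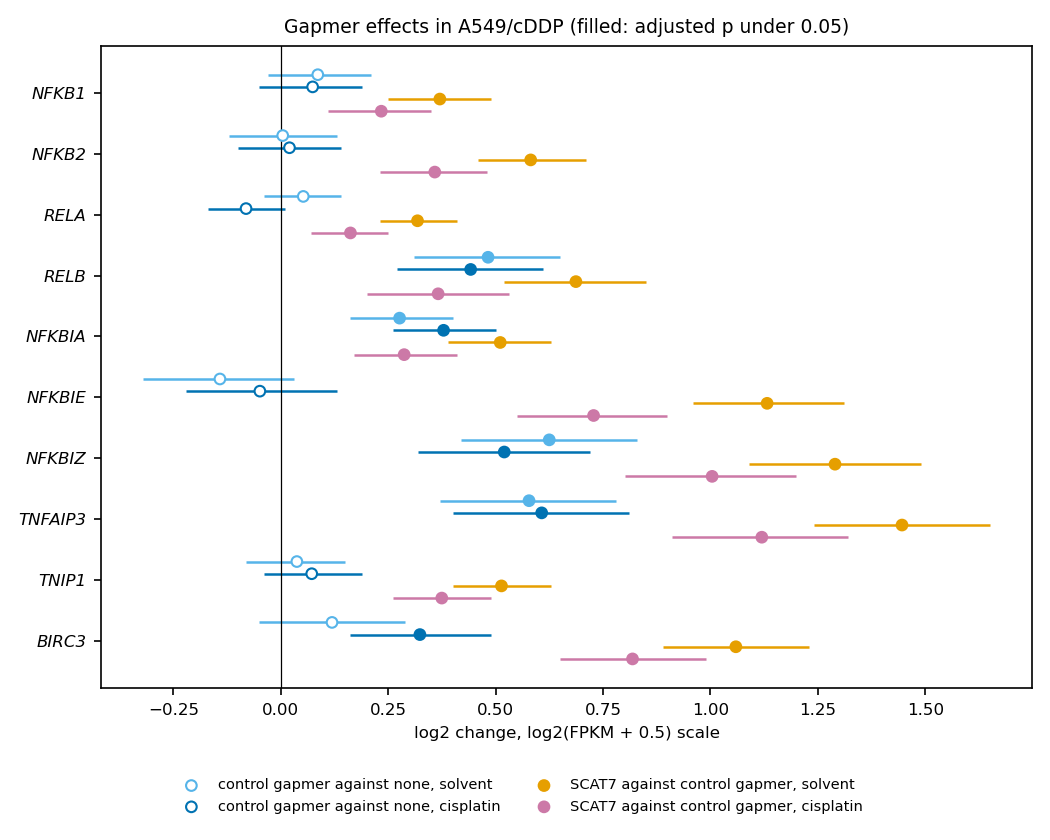
Change (log2(FPKM + 0.5) scale, points) with 95% intervals (lines) for the 10 genes, control gapmer against no transfection and SCAT7 against control gapmer, in solvent and in cisplatin; filled points passed the adjusted p threshold. All SCAT7 points are filled, from 0.16 for RELA in cisplatin to 1.45 for TNFAIP3 in solvent.

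Other genes of the pathway were taken from 2 lists. The upstream list held 43 receptors, adaptors, kinases and other core regulators, all tested; the target list held 38 genes known as NF-kB targets, of which 36 were tested (TNF and BDKRB1 were not, since they reached at most 0.457 and 0.679 FPKM). In A549 cisplatin raised 31 of the 36 targets and lowered 1, with a median change of 1.27, and raised 23 of 43 upstream genes and lowered 7, with a median of 0.18; over all genes tested 33.3% rose and 27.1% fell, with a median of 0.06. CD82, a tetraspanin, rose from 5 ± 0.502 to 144 ± 2.76 FPKM (SD, n = 2), and SAA1, an acute-phase protein, from 0.786 ± 0.369 to 23.5 ± 2.04, although reads shared with its near-identical copy SAA2 make the level of SAA1 uncertain. PLAU, the urokinase gene, fell from 112 to 95.9. Upstream, the receptor-bound adaptor TRAF1 rose from 2.17 ± 0.272 to 6.58 ± 0.202 and the receptor CD40 from 2.63 to 7.54, and the interleukin-1 receptor IL1R1 fell from 32.9 ± 0.837 to 14.3 ± 0.512.

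In A549/cDDP cisplatin raised 4 targets and lowered 5, and raised 1 upstream gene and lowered 1, where 3.55% of all genes tested rose and 4.55% fell. MMP9, a matrix protease, rose from 17.2 to 23.7 FPKM, a call lost when only the 4 libraries compared were fitted (adjusted p = 0.0735) and without library 2 of the solvent (0.0707) or cisplatin group (0.0662). LCN2, a secreted iron-binding protein, fell from 9.76 ± 0.725 to 4.07 ± 0.344. The difference between the lines was called for 29 of the 36 targets, 27 of them negative (the A549/cDDP change below the A549 change) and 2 positive, where 25.6% of all genes tested were called negative and 21.5% positive. CD82 stood at -4.70 (adjusted p = 1.11e-10) and LCN2 at -2.84, the most negative among targets reaching 5 FPKM in A549/cDDP. Of the 43 upstream genes 16 were negative, among them CD40 at -1.17 and TRAF1 at -1.10. The other 6 were positive, IL1R1 at 1.18 the most, and each of the 6 fell in A549 with a value nearer 0, or above it, in A549/cDDP.

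In solvent A549/cDDP was higher for 27 targets and lower for 6, and higher for 26 upstream genes and lower for 8, where 42.7% of all genes tested were higher and 27.5% lower. MMP9 was 0.132 FPKM in A549 and 17.2 in A549/cDDP, and IL6, an inflammatory cytokine, 0.161 and 11.5. PTGS2, the inducible cyclooxygenase gene, was lower in A549/cDDP (18.2 ± 2.06 and 2.86 ± 0.465). Targets in cisplatin divided into 13 higher and 17 lower (37% and 29.5% over all genes tested), with PTGS2 at 52.3 in A549 and 2.81 in A549/cDDP.

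With the SCAT7 gapmer 33 of the 36 targets were higher than with the control gapmer in solvent and none lower, and 27 were higher in cisplatin and none lower. Over all genes tested 33.2% were higher and 22.7% lower in solvent, and 28.6% and 21.1% in cisplatin. IL1A, a cytokine, was 1.08 ± 0.302 and 9.14 ± 2.22 FPKM in solvent (log2 change 2.61, adjusted p = 9.28e-07), and CCL20, a chemokine, 4.74 and 14.8. Upstream genes were higher for 29 and lower for 5 in solvent, and higher for 24 and lower for 6 in cisplatin. TRAF1 was 15 ± 0.942 and 39.1 ± 6.69 and the deubiquitinase CYLD, a negative regulator, 13.7 ± 0.287 and 33.3 ± 4.01, while TAB1, an adaptor of the kinase TAK1, was lower (20.6 and 14.5). Cisplatin against solvent gave 2 called targets of 36 with the control gapmer, both higher, and 2 with the SCAT7 gapmer, both lower. Over all genes tested 2.53% and 4.18% were called in these 2 comparisons. Control gapmer against none gave 24 higher and 6 lower targets in solvent (20.7% and 19% over all genes tested), with PSMB9, an immunoproteasome subunit, at 21.9 and 83.2 FPKM.

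**Figure D5:**
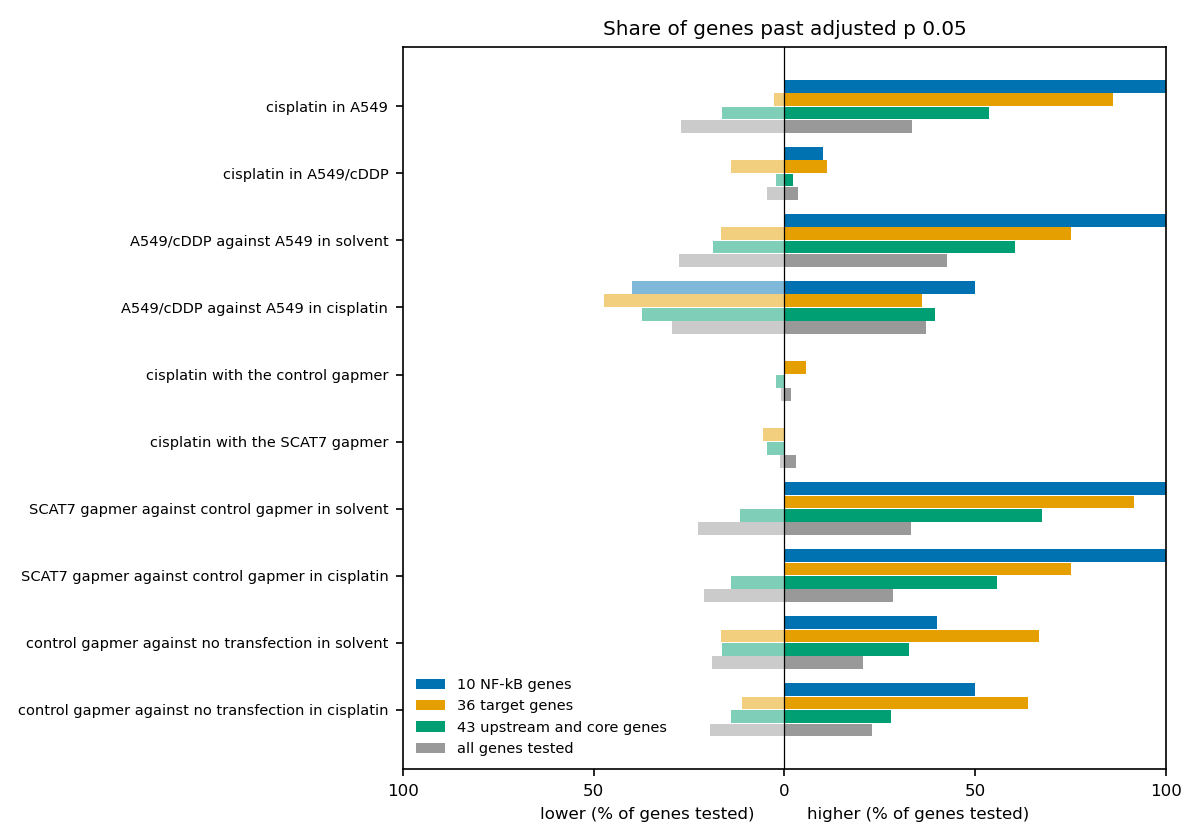
Share (percent of genes tested) that was higher, to the right of 0, or lower, to the left in paler bars, among the 10 NF-kB genes, 36 target genes, 43 upstream and core genes and all genes tested, in 10 of the 12 comparisons (the 2 differences of effects are not drawn). The target list reaches 31 of 36 higher for cisplatin in A549 and 33 of 36 for the SCAT7 gapmer in solvent.

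The 10 genes followed each other across the 16 libraries. Over the 45 pairs Pearson's r of log2(FPKM + 0.5) ran from 0.772 for RELA with NFKB2 to 0.996 for BIRC3 with TNFAIP3, with a median of 0.939. These values describe libraries that share line, treatment and depth, and carry no test.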

How the data were processed

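The 16 libraries were oligo(dT)-enriched mRNA, per the labels' protocols. The authors deposited FPKM, 1 column per library, made with TopHat2, HTSeq 0.6.1 and hg38 according to the submitters' processing notes; their annotation, strand setting and FPKM software are not given in the sources used here. Symbols, positions and exon lengths came from GENCODE 29, which held 56868 of the 60448 identifiers.

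Depth was recovered from low FPKM values, of which 63.3% to 68.7% per library came out whole at a tolerance of 0.02 reads, so fragment numbers are approximate. Values were set on log2(FPKM + 0.5), and the 17198 genes averaging 0.5 FPKM or more were tested. One limma 3.58.1 model (R 4.3.3, trended prior) with 8 group means and 8 residual degrees of freedom gave 12 comparisons, two-sided, Benjamini-Hochberg adjusted, threshold 0.05. The fit was also run on simulated data with far fewer changed genes than were called here. That run does not check the calls reported. Alternatives were 2 other pseudocounts (0.1 and 1), no filter, median ratio scaling, quantile normalization, fitting only the libraries compared, a replicate block and leaving out each library. Members and lists were chosen with earlier results of these data known. List genes named are up to 2 per direction with the largest called changes among those reaching 5 FPKM in a compared group. For the difference between lines this limit used only the untransfected A549/cDDP groups, and for that between gapmers only the SCAT7 gapmer groups. Genes most like TNFAIP3 and BIRC3 were sought among genes averaging 5 FPKM or more, leaving out the members and the list genes.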

Additional observations from a re-analysis of the deposited data

Results flagged for a closer look

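The change with cisplatin differed between A549 and A549/cDDP for 9 of the 10 genes by a test of the difference itself (limma, adjusted over all 17198 genes). Each is given as the A549/cDDP change minus the A549 change on the log2(FPKM + 0.5) scale. For the subunits the difference was -0.42 for NFKB1 (adjusted p = 0.000792), -1.06 for NFKB2 (4.46e-07) and -1.38 for RELB (5.68e-07). For the inhibitors it was -1.22 for NFKBIA (9.04e-08), -0.73 for NFKBIE (0.000213) and -1.13 for NFKBIZ (1.59e-05). For the feedback regulators it was -2.55 for TNFAIP3 (1.8e-08), -1.23 for TNIP1 (7.1e-08) and -1.80 for BIRC3 (6.16e-08). In each of these genes both treated A549 libraries were above both untreated ones.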

How the results depend on the processing

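Of 68 called values of the 10 genes, all 68 kept direction and call under both other pseudocounts, no filter, quantile normalization and the replicate block, 67 under median ratio scaling and 67 when only the libraries compared were fitted; none reversed. Over the leave-one-out fits 303 of 308 kept their call, 5 lost it and none reversed; a group left with 1 library is assumed to vary like the others. The count of called genes for cisplatin in A549/cDDP was 0 with only the libraries compared and 0 to 1 with a library left out. With a library left out it was 7 to 9 for the lines in cisplatin, 0 to 2 for cisplatin with the SCAT7 gapmer and 0 to 2 for the difference between gapmers. Of 839 values of list genes, added after the data were seen, 787 kept their call, 52 lost it and none reversed.

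Replicate numbers did not pair the samples: of 28 correlations between groups of the replicate differences (-0.19 to 0.12), 16 were above 0 and 2 over 0.1. With the replicate block the called counts stayed at 10 of 10 for cisplatin in A549 and 9 of 10 for the difference between lines, and no call among the 10 changed; over all genes cisplatin in A549 gave 10325 calls against 10393.

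Over all genes, calls for cisplatin in A549/cDDP went from 1393 to 417 with only the libraries compared, with the control gapmer from 435 to 270 and with the SCAT7 gapmer from 719 to 0, and for the difference between gapmers from 160 to 10, or 262 with no filter. The share of calls that were higher moved, by median ratio scaling and quantile normalization, from 60.8% to 49.7% and 49.3% for the lines in solvent. By median ratio scaling it moved from 66.2% to 52.6% for cisplatin with the control gapmer and from 69.8% to 57.6% with the SCAT7 gapmer. By quantile normalization it moved from 69.8% to 59.4% there and from 54.3% to 43.9% for the control gapmer in cisplatin. Depth limits NFKBIE most, at about 636 fragments in its lowest library.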

Other observations

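The 10431 genes compared here averaged 5 FPKM or more and left out the NF-kB genes described above and the upstream and target lists. Among them TNFAIP3 was followed most closely across the 16 libraries by GATA3, a transcription factor (Pearson r = 0.993, 2.15 to 18 FPKM). Next were C1RL, a complement-related protease (0.992, 23.6 to 86.9 FPKM), and ERAP2, an aminopeptidase of antigen processing (0.99, 1.8 to 27.2 FPKM). For BIRC3 the closest genes compared were ETV6, a transcriptional repressor (0.99, 8.1 to 35.3 FPKM), GATA3 (0.989) and ERAP2 (0.989). BIRC3 and TNFAIP3 correlated with each other at 0.996, higher than either did with any of these genes. These are descriptions over libraries that share line, treatment and depth.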
